A study of Mus musculus with 16 samples.

Results

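Livers of mice depleted of Cdh1 were compared with livers of control littermates at 6 weeks of age, with 3 mice in each group and 1 array per mouse. These 6 arrays were chosen by the labelled age and are 6 of the 16 in the series, which also covers 1 and 3 weeks. Per the labels, every mouse was male, and both copies of Cdh1 were floxed (fl/fl) in Cre and control mice alike. The 3 mice called Cre had the genotype fl/fl and +/wt and the 3 mice called control had fl/fl and wt/wt. Chow was removed for 6 hours before all 6 dissections, and a piece from the centre of the left lobe was taken. The labels name the transgene cdh1albcre for both genotypes, and the series' design text calls the depletion liver-specific. The strain, the promoter that drives Cre and the cells in which it acts are not stated in the labels. No mouse had Cre with an unfloxed Cdh1 gene, so effects of the recombinase and of Cdh1 loss cannot be told apart. The replicate numbers only name a mouse. From the shared part of the sample titles, control mice 1 and 2 and Cre mice 1 and 2 were taken as 1 litter, and control mouse 3 and Cre mouse 3 as another.

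Cdh1 encodes E-cadherin, the adhesion protein that joins neighbouring epithelial cells at adherens junctions and binds beta-catenin, p120-catenin and, through them, alpha-catenin and actin. Hepatocytes also carry N-cadherin, encoded by Cdh2, whereas bile duct cells, the cholangiocytes, rely mainly on E-cadherin. Around the portal tract the duct is surrounded by portal fibroblasts and macrophages, and stellate cells lie along the sinusoids. Injury of the biliary tree is known for duct-like cells that spread from the portal tract, for fibroblasts that lay down collagen and for immune cells that follow chemokines.

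Values are log2 signals relative to the array's 75th percentile of signal, so 0 is the level of that percentile and a difference of 1 is a doubling. A change is the mean of the Cre mice minus the mean of the control mice, ± its standard error, with n = 3 per group. Unless another fit is named, this standard error comes from the limma fit of all arrays of the series. Its spread is pooled over the ages and genotypes and is not that of the 6 mice listed beside it. For Cdh1 the standard error was 0.35 in that fit and 0.2 with the 6-week arrays fitted alone. A gene was called if its limma p, adjusted over all 17304 genes tested, was below 0.05. The gene lists below were chosen with earlier results of these data known, so list values set beside those of all genes are no test. Of all genes tested, 8998 were higher in the Cre mice and 8306 lower. The members of a list were measured in the same 6 mice, so counts of members higher or lower are no test. The signal of a tissue piece cannot tell apart fewer cells of a type and less RNA per cell. Of the probes on the 6 arrays, 66.85% to 71.62% were well above background in the control mice and 71.27% to 73.65% in the Cre mice. Correlations between arrays over all genes were 0.989 to 0.993 for pairs of the same genotype and 0.985 to 0.995 for pairs of different genotype. The arrays lay on 2 slides: slide 1 held Cre mice 1 and 2 and control mouse 1, and slide 2 held Cre mouse 3 and control mice 2 and 3. Cre mouse 2 lay nearer to the control mice than the other Cre mice in most of the genes described here, and counts are therefore also given without it. As that mouse was picked by its values, the counts without it are no test.

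The 3 control mice, in the order of their numbers, had Cdh1 signals of 1.00, 0.59 and 0.43, and the 3 Cre mice had -2.08, -2.33 and -1.79. The groups were far apart, and the lowest control mouse lay above the highest Cre mouse by much more than the spread within either group. Cdh1 fell 6.68-fold (log2 change -2.74 ± 0.35, limma adjusted p = 0.017). An exact permutation test of the 6 mice gave p = 0.1, two-sided, the smallest that 3 against 3 mice allow. The change was -3.20 within slide 1 and -2.30 within slide 2. With litter as a block it was -2.74 ± 0.40 and the call was lost (limma adjusted p = 0.062). Without control mouse 3, Cre mouse 1 or Cre mouse 3 the adjusted p was 0.06, 0.057 and 0.075, with changes of -2.86, -2.73 and -2.88. Cdh1 remained well above background on all 3 Cre arrays. The labels do not say which exons are floxed, and the position of the probe relative to them was not determined.

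Among the partners of E-cadherin and the other cadherins no change was called, which does not show that they were unchanged. None of the other 17 members of the list of cadherins, catenins and nectins that were tested was called, against 0.451% of all genes, and 14 of them differed by less than 0.2 on the log2 scale. Cdh2, the other classical cadherin of hepatocytes, was 3.50, 3.60 and 3.39 in the control mice and 3.51, 3.51 and 3.52 in the Cre mice, a difference of 0.02 ± 0.09. The groups overlapped fully. Differences were equally small for the junction's intracellular partners: Ctnnb1, beta-catenin, 0.05 ± 0.11, Ctnnd1, p120-catenin, -0.07 ± 0.08, Ctnna1, alpha-catenin, 0.10 ± 0.11, Jup, plakoglobin, 0.15 ± 0.15, and Vcl, vinculin, 0.08 ± 0.16. The nectins, a second family of adhesion proteins at the same junction, and their adaptor afadin differed by 0.07 ± 0.15 (Nectin1), 0.04 ± 0.16 (Nectin2), 0.07 ± 0.16 (Nectin3) and -0.04 ± 0.19 (Afdn). Endothelial Cdh5 differed by 0.08 ± 0.13, Cdh4 by 0.07 ± 0.18, Cdh16 by -0.08 ± 0.25, Cdh13 by -0.17 ± 0.24 and Cdh11 by -0.29 ± 0.29. Of the 17, the groups did not overlap for Cdh6 (0.36 ± 0.23, adjusted p = 0.63) and Cdh3. Over all genes the Cre mice lay wholly above the control mice in 9.27%. Cdh3, P-cadherin, was -5.47, -5.06 and -5.67 in the control mice and -3.59, -4.92 and -4.90 in the Cre mice (0.93 ± 0.43, limma adjusted p = 0.43), with Cre mouse 1 alone far above the control mice, and it was well above background on 1 of 3 control arrays. Cdh17 did not pass the filter on dim probes.

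**Figure D1:**
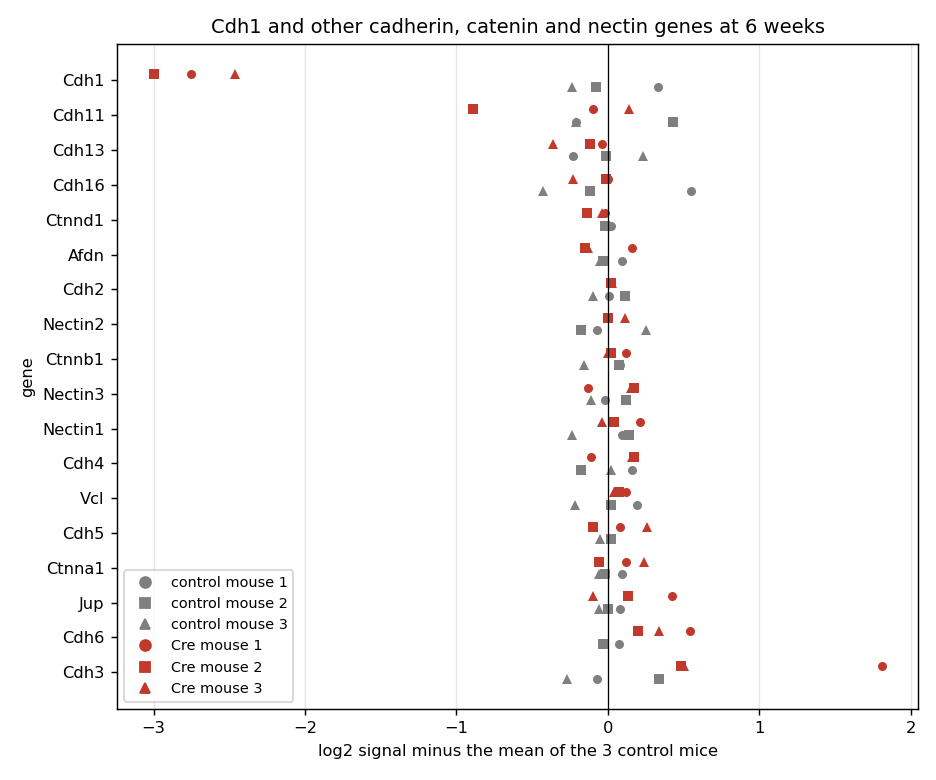
Each row is a gene of the list of cadherins, catenins and nectins, and the horizontal axis is the log2 signal of each mouse minus the mean of the 3 control mice (grey, control mice; red, Cre mice; the shape gives the mouse number). Cdh1 is lower in all 3 Cre mice, with a change of -2.74, while the other 17 genes lie around 0, apart from Cdh3 in Cre mouse 1.

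Tight junction genes, which seal epithelial sheets, and genes of gap junctions and desmosomes were measured beside the adherens junction. None of 17 tight junction genes and none of 11 gap junction and desmosome genes was called. Their median changes were 0.22 and 0.31, against 0.01 over all genes. Cldn6 and Cldn7, both claudins, differed by 0.69 ± 0.27 and 0.46 ± 0.19 (adjusted p = 0.32 and 0.34). Ppl, periplakin, a linker of desmosomes and keratins, was -0.95, -0.66 and -0.43 in the control mice and 1.07, -0.12 and 1.26 in the Cre mice. Its groups did not overlap, and Cre mouse 2 was the lowest of the Cre mice (1.41 ± 0.33, limma adjusted p = 0.083). Dsg2, a desmosomal cadherin, and Dsp, desmoplakin, differed by 0.31 ± 0.11 and 0.42 ± 0.19 (adjusted p = 0.28 and 0.41).

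At 6 weeks 78 genes changed, 0.451% of those tested: 74 rose (0.428%) and 4 fell (0.0231%). Of the 74, 52 were well above background on 1 or more control arrays, and 9 of these rose 4-fold or more and 41 at least doubled. The other 22 were not well above background on any control array, so only a bound could be given: it was 4-fold or more in 2 and 2-fold or more in 8, and 7 had none. Both groups of mice stayed apart in all 78 genes. This is no further support, as the calls rest on the same values. Over all genes the Cre mice lay wholly above the control mice in 9.27% and wholly below in 6.13%. A fit that also held a term for the slide called 51 genes (47 higher, 4 lower), and 46 of these were among the 78. With litter as a block, or with the 6-week arrays fitted alone, limma called 0 genes, with 2196 and 1666 at an unadjusted p under 0.05 against 2044 (11.8% of those tested) in the fit reported. After normexp background correction 9 genes were called, all of them among the 78: Cdh1, Gm128, Mmp7, Timp2, Aebp1, Bicc1, Glis2, Fxyd6 and Phlda3. The count also depended on each mouse. Without control mouse 1, 2 or 3 it was 17, 38 and 3, and without Cre mouse 1 or 3 it was 3 and 2. Without Cre mouse 2 it was 976, with 803 genes up and 173 down, and the 976 held all 78.

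**Figure D2:**
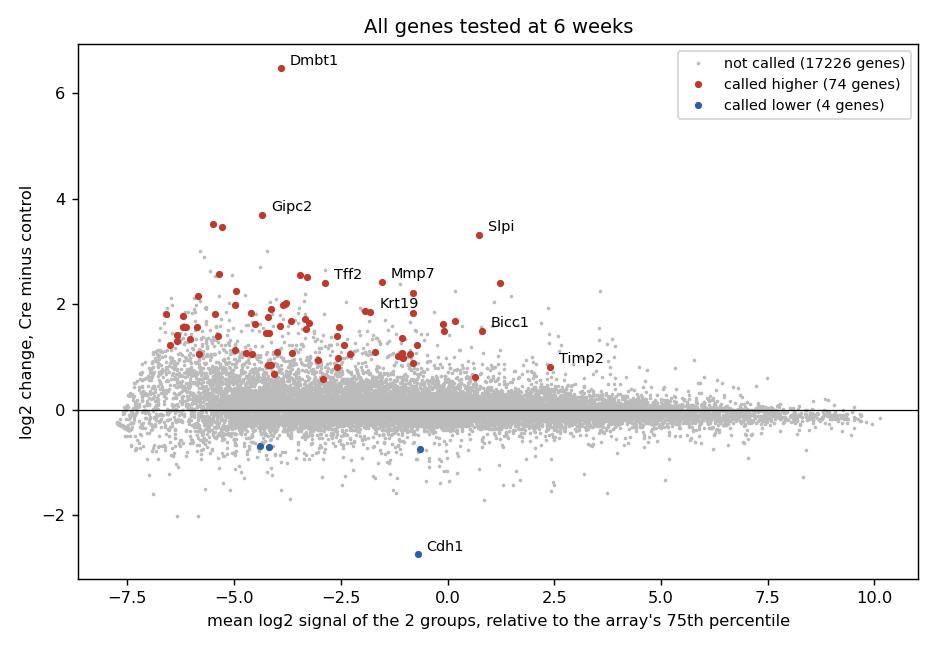
Each point is 1 of the 17304 genes tested, with the mean log2 signal of the 2 group means on the horizontal axis and the log2 change, Cre minus control, on the vertical axis (red, the 74 genes called higher; blue, the 4 called lower; grey, not called). Calls lie mostly above 0, Dmbt1 and Cdh1 stand at the top and bottom, and grey points as far from 0 as some called genes are common among dim signals.

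The 3 Cre mice were not alike. Over the 74 genes that rose, Cre mouse 1 was the highest of the Cre mice in 56, Cre mouse 3 in 17 and Cre mouse 2 in 1, and Cre mouse 2 was the lowest in 66. Over the 52 genes with a measured control level, the median distance above the control mean was 1.86 in Cre mouse 1, 0.86 in Cre mouse 2 and 1.48 in Cre mouse 3. Cdh1 itself did not follow this order, since Cre mouse 2 had the lowest Cdh1 signal of the 3. The share of probes well above background was 72.60%, 71.27% and 73.65% in Cre mice 1 to 3; its part in the order was not tested.

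**Figure D3:**
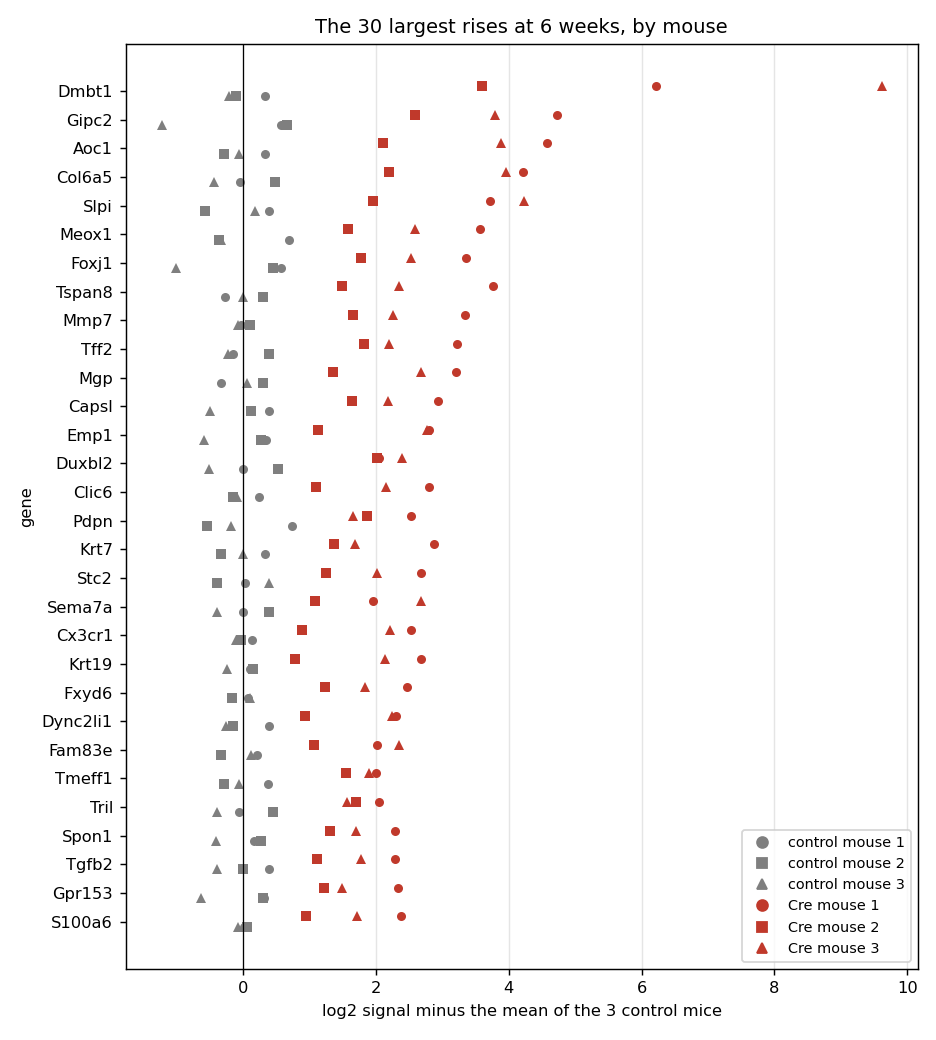
Each row is 1 of the 30 genes with the largest rise among those called, and the horizontal axis is the log2 signal of each mouse minus the mean of the 3 control mice (grey, control mice; red, Cre mice; the shape gives the mouse number). Red and grey points do not overlap in any row, Cre mouse 2 (square) is the nearest to the control mice in most rows, and Dmbt1 in Cre mouse 3 lies farthest out.

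Dmbt1, Slpi and Tff2, secreted proteins of mucosal and ductal epithelium, rose. Dmbt1, a large scavenger glycoprotein that epithelia secrete in defence and repair, was -6.81, -7.25 and -7.35 in the control mice, not well above background on any of these arrays, and -0.93, -3.55 and 2.48 in the Cre mice. The Cre mice spread over more than 6 log2 units, and the lowest of them was still far above the control mice. Dmbt1 rose at least 25.1-fold (limma adjusted p = 0.039), a bound that sets the Cre mean against the dimmest signal that counts as well above background. After normexp background correction its change was 2.75 and it was not called (limma adjusted p = 0.21). Slpi, an inhibitor of leukocyte proteases made by mucosal epithelium, was -0.53, -1.49 and -0.75 in the control mice and 2.79, 1.04 and 3.31 in the Cre mice. It rose 9.88-fold (3.31 ± 0.58, adjusted p = 0.032), with Cre mouse 2 the lowest of the Cre mice. Tff2, a trefoil peptide that protects mucus layers, was -4.23, -3.68 and -4.30 in the control mice and -0.85, -2.25 and -1.88 in the Cre mice, and rose 5.33-fold (2.41 ± 0.35, adjusted p = 0.02). With slide as a block Slpi was not called (limma adjusted p = 0.06), and Dmbt1 and Tff2 were. These were the 3 of 14 tested members called in the list of mucosal defence and secreted epithelial proteins. Over all genes 0.428% were called higher. The list's median change was 0.73. Without Cre mouse 2, 4 members were called higher, when 803 of all 17304 genes were, and without each of the other mice 0 or 1. Of 20 genes listed, 5 were dim in every group and 1 had no matched probe. Wfdc2, a protease inhibitor of duct-lining epithelium, did not overlap between groups but did not pass (1.14 ± 0.30, adjusted p = 0.12). Lcn2, lipocalin 2, differed by 1.44 ± 0.70 (adjusted p = 0.46) and its groups overlapped, with control mouse 3 at 2.93 and Cre mouse 2 at 1.46.

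The duct keratins Krt19 and Krt7 and the tetraspanin Tspan8 rose, and the other cholangiocyte genes did not pass the test. Krt19, a keratin that in the adult liver marks bile duct cells, was -2.64, -2.59 and -2.99 in the control mice and -0.06, -1.96 and -0.61 in the Cre mice. The control mice were tightly grouped and Cre mouse 2 lay closest to them. Krt19 rose 3.64-fold (1.86 ± 0.35, limma adjusted p = 0.04). Krt7, the other duct keratin, was -4.51, -5.18 and -4.84 in the control mice and -1.97, -3.47 and -3.15 in the Cre mice, and rose 3.94-fold (1.98 ± 0.38, adjusted p = 0.045). With slide as a block neither keratin was called (adjusted p = 0.069 for both). Tspan8, a tetraspanin of secretory epithelia, was -4.83, -4.25 and -4.56 in the control mice and -0.79, -3.07 and -2.21 in the Cre mice. It rose 5.75-fold (2.52 ± 0.41, adjusted p = 0.024) and was called with slide as a block (0.043).

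These were the 3 of 19 cholangiocyte genes called, against 0.428% of all genes called higher. The list's median change was 0.58, against 0.01 over all genes, with 15 members higher and 4 lower. In 9 members the Cre mice all lay above the control mice, against 9.27% of all genes. The list was chosen with earlier results of these data known, so these comparisons are no test. Its summed level, the sum of the members' signals on the linear scale relative to the 75th percentile, ran from 69.4 to 73.1 in the control mice and from 60.1 to 80.1 in the Cre mice. The sum is set by the brightest probes, and its groups overlapped. No member was below background in both groups. Epcam, an adhesion molecule of duct and progenitor cells, was -5.11, -4.11 and -5.16 in the control mice and -2.03, -3.75 and -2.57 in the Cre mice (2.01 ± 0.45, adjusted p = 0.076). Spp1, osteopontin, made by duct cells, differed by 2.05 ± 0.46 and Cd24a by 1.67 ± 0.35 (adjusted p = 0.076 and 0.062), both without overlap. Prom1, a marker of duct-like progenitors, was -2.12, -1.94 and -2.25 in the control mice and -0.46, -1.42 and 0.32 in the Cre mice (1.58 ± 0.47, adjusted p = 0.17). Without Cre mouse 2, 9 members were called higher and 1 lower, when 803 and 173 of all 17304 genes were. Without any one of the other 5 mice 0 were called.

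Other genes that rose stood on none of the lists. Gipc2, a PDZ-domain adaptor, was -5.62, -5.53 and -7.42 in the control mice and -1.46, -3.61 and -2.40 in the Cre mice and rose at least 6.98-fold (adjusted p = 0.024). Aoc1, an amine oxidase that degrades histamine, rose at least 3.00-fold (adjusted p = 0.02) and was well above background in 2 of 3 Cre mice. Meox1, a homeobox factor of mesenchyme, rose at least 2.37-fold and Capsl, a calcium-binding protein, at least 2.81-fold (adjusted p = 0.039 and 0.04). Mgp, matrix Gla protein, an inhibitor of calcification, was -0.31, 0.31 and 0.07 in the control mice and 3.23, 1.37 and 2.69 in the Cre mice. It was well above background on all 6 arrays and rose 5.29-fold (2.40 ± 0.44, adjusted p = 0.039). Emp1, an epithelial membrane protein, rose 4.66-fold (adjusted p = 0.037) and Clic6, of the intracellular chloride channel family, 4.05-fold (0.047). With slide as a block Mgp, Meox1, Capsl, Emp1 and Clic6 were not called (limma adjusted p from 0.06 to 0.081). Pdpn, podoplanin, a mucin-like membrane protein of lymphatic vessels, mesothelium and some epithelia, was -4.08, -5.35 and -5.00 in the control mice and -2.29, -2.95 and -3.16 in the Cre mice and rose 4.03-fold (adjusted p = 0.037), while its other kept probe differed by only 0.21 against 2.01 for the probe used. Duxbl2, a double homeobox gene, had the smallest adjusted p of all (0.0098) and rose at least 1.45-fold. It has near-identical copies, so its signal cannot be given to 1 copy with certainty, and the same holds for the stefin gene Stfa2l1.

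Among the smaller rises were S100a6, a calcium-binding protein, at 3.21-fold, Fxyd6, a regulator of the sodium pump, at 3.59-fold, and Hkdc1, a hexokinase, at 3.15-fold (adjusted p from 0.024 to 0.044). Stc2, a secreted glycoprotein, rose at least 2.51-fold. S100a6, Hkdc1 and Stc2 lost their calls with slide as a block (0.068, 0.068 and 0.069). Bicc1, an RNA-binding protein known from cystic kidney and bile duct disease, was 0.21, 0.10 and -0.15 in the control mice and 2.17, 0.88 and 1.63 in the Cre mice and rose 2.84-fold (adjusted p = 0.024). Glis2, a zinc finger factor known from cystic kidney disease, was -1.28, -1.25 and -1.44 in the control mice and 0.25, -0.53 and -0.04 in the Cre mice and rose 2.33-fold (1.22 ± 0.17, adjusted p = 0.017). Both were well above background on all 6 arrays, and their control mice lay within a narrow range. Dync2li1, a motor subunit of transport in cilia, rose at least 3.07-fold and Evc2, a protein of the ciliary base, 2.03-fold (adjusted p = 0.032 and 0.024). The guidance molecules Sema7a, Sema5a and Slit2 rose 3.75-fold, 2.64-fold and at least 1.16-fold (adjusted p = 0.032, 0.024 and 0.04). Slit2 was not called with slide as a block (0.069). Of 16 called genes with another probe kept, all other probes had the same sign in 12, and Mbp, Lrrc1, Ncam1 and the clone 4930555G01Rik were the exceptions. The same sign did not always mean a like size. The other probe of Plcd3 differed by 1.34 against 1.23 for the probe used, but that of Tenm4 by 0.04 against 1.53. Kif2c was called from a probe that none of the 6 arrays read well above background, and the gene's other kept probe differed by 0.14.

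Foxj1, the transcription factor that switches on motile cilia, rose 5.86-fold. It was -4.17, -4.29 and -5.76 in the control mice and -1.38, -2.97 and -2.22 in the Cre mice (2.55 ± 0.48, limma adjusted p = 0.04). Control mouse 3 was lower than the other control mice, and Foxj1 was well above background in 2 of 3 control mice. In the fit with the slide term its adjusted p was 0.069. Foxj1 was the only 1 of 17 motile cilium genes tested that was called, against 0.428% of all genes called higher. The list's median change was 0.02, with 9 members higher and 8 lower. Of 24 genes listed, 6 were dim in every group and 1 had no matched probe. Rsph9, a radial spoke protein of motile cilia, differed by 0.82 ± 0.21 and Tekt1, tektin 1, by 0.49 ± 0.16 (adjusted p = 0.12 and 0.21), both without overlap. Dnah11, a dynein heavy chain, differed by -0.68 ± 0.37 (adjusted p = 0.52). None of 14 primary cilium and polycystin genes was called (median 0.13).

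The matrix proteases and their inhibitors were higher in the Cre mice in 14 of 15 members tested, against 8998 of all 17304 genes. Of the 15, 2 were called, against 0.428% of all genes called higher. Mmp7, matrilysin, a protease that ductal and glandular epithelium makes on injury, was -2.78, -2.65 and -2.83 in the control mice and 0.59, -1.10 and -0.50 in the Cre mice. The control mice lay within 0.2 of each other, and all Cre mice lay far above. Mmp7 rose 5.35-fold (2.42 ± 0.32, limma adjusted p = 0.017), by 2.53 within slide 1 and 2.24 within slide 2. Timp2, an inhibitor of metalloproteases and an activator of Mmp2, was 2.05, 2.17 and 1.77 in the control mice and 3.11, 2.59 and 2.73 in the Cre mice and rose 1.76-fold (0.82 ± 0.14, adjusted p = 0.032), but was not called with slide as a block (0.06). Mmp2, gelatinase A of fibroblasts, just missed the threshold (1.41 ± 0.28, adjusted p = 0.054), with no overlap. Adamts2, which trims procollagen, Timp3 and Plat, tissue plasminogen activator, differed by 0.82 ± 0.21, 0.67 ± 0.17 and 1.81 ± 0.46 (adjusted p = 0.11 for each), also without overlap. The list's median change was 0.78, and its summed level ran from 9.50 to 12.6 in the control mice and from 15.2 to 23.5 in the Cre mice, without overlap. Without Cre mouse 2, 8 members were called higher, when 803 of all 17304 genes were, and without each of the other mice 0 to 2.

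Genes of stellate cells and fibrosis were higher in 19 of 20 members, but 0 of 20 passed the test, against 0.428% of all genes called higher. The median change was 0.61, and in 13 members all Cre mice lay above all control mice, against 9.27% of all genes. Timp1, a metalloprotease inhibitor and a sensitive sign of fibrogenesis, was -4.16, -4.12 and -4.31 in the control mice and 0.05, -3.27 and -1.41 in the Cre mice. Cre mice 1 and 3 were high and Cre mouse 2 was little above the control mice (2.65 ± 0.59, limma adjusted p = 0.076). Col1a1, a chain of type I collagen, was 0.55, 0.65 and 0.01 in the control mice and 3.67, 1.29 and 2.73 in the Cre mice (2.16 ± 0.49, adjusted p = 0.081). Col3a1 showed the same order of Cre mice, with 3.87, 1.80 and 3.34 against 1.45, 1.73 and 0.90 in the control mice (1.64 ± 0.42, adjusted p = 0.11). Pdgfra, the PDGF receptor of fibroblasts, was less spread, with -1.47, -1.42 and -1.56 in the control mice and -0.85, -1.07 and -0.90 in the Cre mice (0.54 ± 0.14, adjusted p = 0.12). The list's summed level ran from 138 to 169 in the control mice and from 161 to 227 in the Cre mice. Without Cre mouse 2, 10 of the 20 members were called higher, when 803 of all 17304 genes were. Without any one of the other 5 mice 0 members were called.

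Markers of portal fibroblasts and mesothelium were higher in 13 of 13 members, with a median change of 1.12. That median moved with the processing: it was 0.82 with slide as a block, 0.53 and 0.77 within slides 1 and 2, 0.81 to 1.12 without 1 mouse and 0.30 after normexp background correction. Cd34, a sialomucin of portal fibroblasts and vessels, was -0.96, -0.95 and -0.89 in the control mice and 1.03, -0.16 and 1.22 in the Cre mice and was the 1 member called (1.63 ± 0.32, adjusted p = 0.047). With slide as a block its adjusted p was 0.068. This was 1 of 13 members, against 0.428% of all genes called higher. Fbln1, fibulin 1, and Mfap4, a protein of elastic microfibrils, differed by 1.12 ± 0.25 and 1.22 ± 0.31 (adjusted p = 0.076 and 0.11) without overlap. Msln and Wt1, which mark the mesothelium of the liver capsule, had another pattern among the mice. Msln was -1.57, -3.91 and -2.59 in the control mice and -0.85, -0.20 and -1.93 in the Cre mice (1.69 ± 0.64, adjusted p = 0.29). Here Cre mouse 2 was the highest mouse of all, and control mouse 1 lay above Cre mouse 3. Wt1 was -3.96, -6.42 and -5.60 in the control mice and -3.55, -3.42 and -4.47 in the Cre mice (1.52 ± 0.58, adjusted p = 0.3), with the same overlap. The list's summed level ran from 3.65 to 4.06 in the control mice and from 5.84 to 9.60 in the Cre mice. Upk1b was not well above background in either group.

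Basement membrane and interstitial matrix genes were higher in 23 of 25 members, with a median change of 0.52. Over all genes 0.428% were called higher, and of the 25 members 1 was called. This was Col6a5, a chain of the collagen VI family, at -7.06, -6.53 and -7.45 in the control mice and -2.80, -4.81 and -3.06 in the Cre mice. It was not well above background in any control mouse and rose at least 3.39-fold (limma adjusted p = 0.02). Col6a1 and Col6a2, the common chains of collagen VI, differed by 1.07 ± 0.24 and 1.02 ± 0.27 (adjusted p = 0.076 and 0.12), both without overlap. Lamb2, a laminin chain of basement membranes, differed by 0.69 ± 0.15 (adjusted p = 0.072). Col5a2, which regulates the width of collagen fibrils, was at least 2.63-fold higher but not called (adjusted p = 0.068). The summed level of the list overlapped between groups, at 259 to 286 in the control mice and 254 to 275 in the Cre mice. Without Cre mouse 2, 11 members were called higher, when 803 of all 17304 genes were, and without each of the other mice 0 or 1. Outside the list Aebp1, a protein of the collagenous matrix, was -0.61, -0.88 and -1.04 in the control mice and 1.12, 0.55 and 0.30 in the Cre mice and rose 2.82-fold (adjusted p = 0.018). None of 10 integrins tested was called (median 0.13), with Itgb5 at 0.36 ± 0.11 and Itga6 at 0.54 ± 0.20 (adjusted p = 0.19 and 0.29).

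The chemokine Cx3cl1 and its receptor Cx3cr1 both rose. Cx3cl1, fractalkine, a membrane-bound chemokine of epithelial and endothelial cells, was -3.28, -3.09 and -3.62 in the control mice and -1.18, -2.57 and -1.56 in the Cre mice. It rose 2.95-fold (1.56 ± 0.28, limma adjusted p = 0.034) and was called with slide as a block (0.043). Cx3cr1, its receptor on monocytes and macrophages, was -2.73, -2.89 and -2.97 in the control mice and -0.33, -1.98 and -0.65 in the Cre mice and rose 3.67-fold (1.88 ± 0.35, adjusted p = 0.04, or 0.068 in the fit with the slide term). In both genes Cre mouse 2 was lowest among the Cre mice. Cx3cl1 was the 1 of 18 cytokine, chemokine and adhesion genes called, against 0.428% of all genes called higher. The list's median was 0.45. Ccl2, which draws monocytes, was -2.51, -3.10 and -3.28 in the control mice and 0.07, -2.50 and -0.74 in the Cre mice. Cre mouse 2 was only just above the highest control mouse, and Ccl2 did not pass (1.90 ± 0.66, adjusted p = 0.25). Cxcl5, which draws neutrophils, differed by 1.70 ± 0.56 (adjusted p = 0.22), and Cre mouse 2 lay below all control mice.

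Cx3cr1 was also the 1 of 17 genes of Kupffer cells and macrophages called, against 0.428% of all genes called higher. The list's median was 0.19. Ccr2, the Ccl2 receptor of recruited monocytes, was -5.35, -4.07 and -3.89 in the control mice and -1.69, -3.79 and -2.09 in the Cre mice (1.92 ± 0.53, adjusted p = 0.14). Trem2, of lipid-handling and scar-associated macrophages, differed by 1.30 ± 0.42 (adjusted p = 0.21) with overlap. The complement genes C1qb and C1qc, made by resident Kupffer cells, differed by 0.20 ± 0.16 and 0.23 ± 0.17. The list's summed level was 103 to 148 in the control mice and 115 to 147 in the Cre mice. None of 9 neutrophil genes was called, and 5 were higher and 4 lower. The list's median change was 0.75, but -0.01 without Cre mouse 3 and 1.16 without Cre mouse 2. S100a8 was -2.94, -2.65 and -0.82 in the control mice and -0.30, -2.16 and 0.56 in the Cre mice (1.51 ± 0.66, adjusted p = 0.39), so that control mouse 3 was among the high animals. The median changes of the lists for T and NK cells, B cells and endothelial cells were -0.09, 0.04 and 0.05, with 0 of 15, 0 of 9 and 0 of 13 genes called. Acinar cells of the pancreas, a possible neighbouring tissue, had a median of -0.22 and 0 of 7 called, and erythroid genes had -0.31 and 0 of 10.

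**Figure D4:**
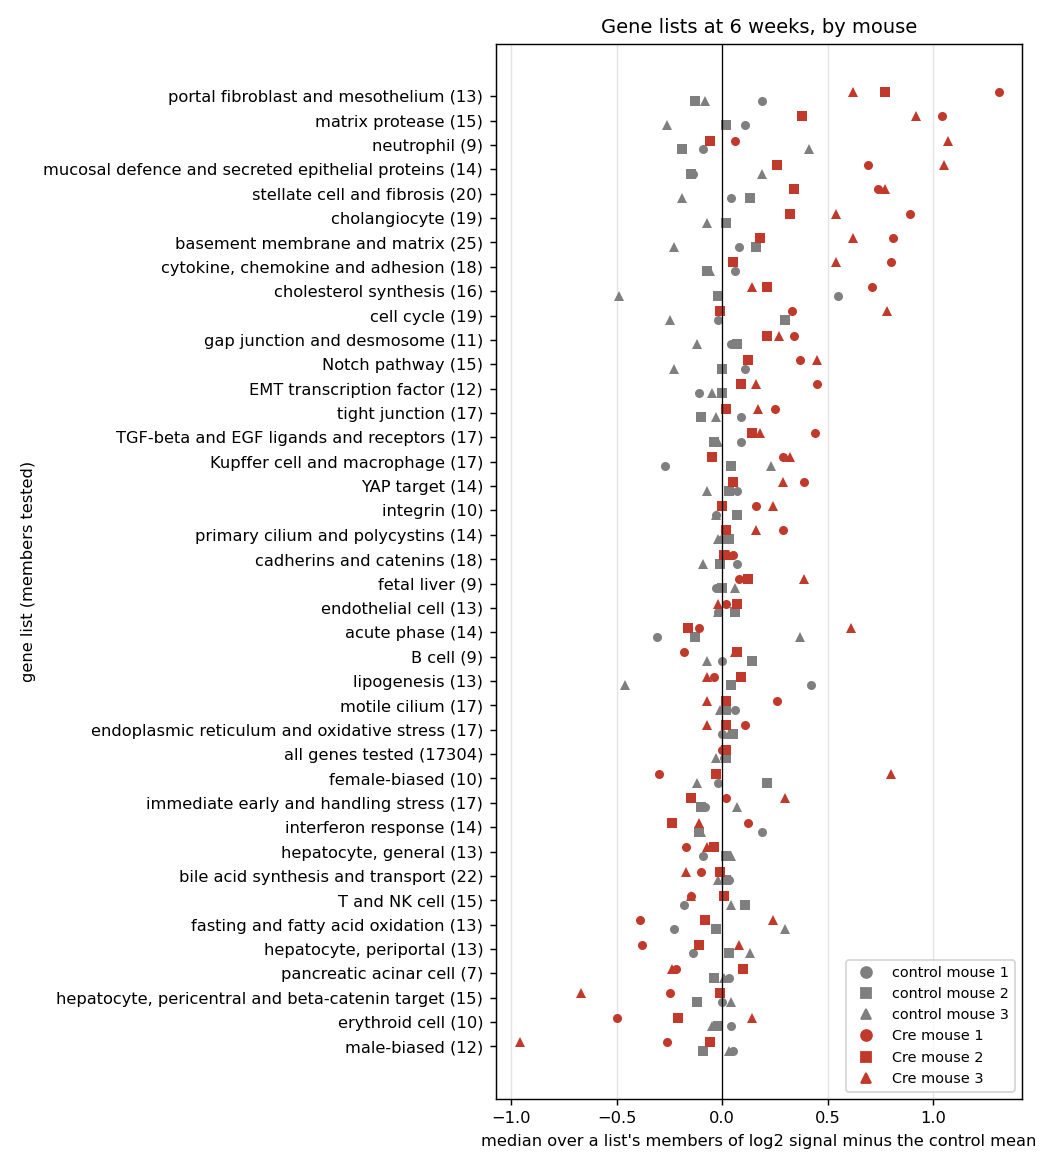
Each row is a gene list, with the number of members tested in brackets, and the horizontal axis is the median over its members of the log2 signal of a mouse minus the control mean (grey, control mice; red, Cre mice; the shape gives the mouse number). The lists of portal fibroblasts, matrix proteases, stellate cells and cholangiocytes lie to the right of the control mice in all 3 Cre mice, with Cre mouse 2 the lowest in the last 3, while the male-biased list is lowest in Cre mouse 3.

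Of the signalling lists described here 1 gene was called. Tgfb2, a growth factor of the TGF-beta family that acts on fibroblasts, was -3.80, -4.19 and -4.58 in the control mice and -1.91, -3.08 and -2.42 in the Cre mice. It rose 3.29-fold (1.72 ± 0.27, limma adjusted p = 0.024) and was called with slide as a block (0.043). It was the 1 of 17 TGF-beta and EGF ligands and receptors called (median 0.21) and, as it stands on both lists, the 1 of 14 YAP targets called (median 0.18), against 0.428% of all genes called higher. Ltbp2, which binds the extracellular matrix, was without overlap and just over the threshold (1.95 ± 0.40, adjusted p = 0.06), as was Tgfb3 (0.70 ± 0.15, adjusted p = 0.071). Egfr was lower in all Cre mice, at 5.05, 4.72 and 5.82 in the control mice against 4.48, 4.69 and 4.65 (-0.59 ± 0.31, adjusted p = 0.51), and its lowest control mouse and highest Cre mouse were nearly level. Ankrd1, a YAP target of injured epithelium, differed by 1.62 ± 0.46 (adjusted p = 0.14), and Ctgf by 0.48 ± 0.39 (0.72). None of 15 Notch pathway genes was called (median 0.30). Jag2, a Notch ligand, was -7.29, -7.85 and -7.22 in the control mice and -6.04, -5.66 and -4.70 in the Cre mice (adjusted p = 0.086), and was well above background on 1 of the 6 arrays. Of 12 transcription factors and regulators linked to epithelial-mesenchymal transition none was called and none was free of overlap. Over all genes 9.27% lay wholly above and 6.13% wholly below in the Cre mice. Esrp1, a splicing factor of epithelial cells, differed by -0.56 ± 0.17 (adjusted p = 0.18) and Snai1 by 0.40 ± 0.22 (0.54).

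Hepatocyte genes were not called in either direction. The 13 general hepatocyte genes had a median change of -0.06, with 11 lower, and their summed level ran from 5519 to 6333 in the control mice and from 5409 to 5817 in the Cre mice. Alb, albumin, was 10.08, 10.24 and 10.35 in the control mice and 10.05, 10.16 and 9.98 in the Cre mice, a difference of -0.16 ± 0.09 (adjusted p = 0.58). None of 13 periportal genes (median -0.16) or 22 genes of bile acid synthesis and transport (median -0.09) was called. Slc51b, a subunit of the basolateral bile acid exporter, differed by 1.10 ± 0.34 (adjusted p = 0.19), and its groups overlapped. Of 19 cell cycle genes 0 were called (median 0.35). Top2a, topoisomerase of dividing cells, was -4.29, -3.73 and -4.79 in the control mice and -3.52, -3.63 and -2.89 in the Cre mice (0.92 ± 0.25, adjusted p = 0.13), and control mouse 2 was close to Cre mouse 2.

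Besides Cdh1 only 3 genes fell, all by less than a halving. Gm128 was -0.28, -0.41 and -0.15 in the control mice and -1.07, -0.78 and -1.23 in the Cre mice (-0.74 ± 0.12, limma adjusted p = 0.025). Alpk3, an alpha kinase, fell by 0.70 ± 0.13 and Adam18, a disintegrin-type protein known from sperm, by 0.69 ± 0.09 on the log2 scale (adjusted p = 0.04 and 0.017). The 3 were called with slide as a block too (0.021, 0.021 and 0.024), and none of them was on a list.

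RefSeq promoter windows of the mouse assembly GRCm38.p6 were searched for the letters of the AP-1 and TEAD motifs. A window is the 250 bases before a gene's start. Windows were at hand for 55 of the 74 genes that rose, 62 windows in all. The AP-1 motif TGANTCA was found in 4 of the 62 (6.45%), against 5.46% of 17109 windows of genes tested and 6.75% of all 32851. The AP-1 letters are the same on both strands. The TEAD motif GGAATG, read on both strands, was found in 5 (8.06%, against 11.4% and 12.6%). The AP-1 share lay between the other two and the TEAD share below both, and a match is only a match of letters. The 4 windows with an AP-1 match are shown because they belong to genes that rose, at matrilysin, at the histamine-degrading oxidase, at the membrane protein Emp1 and at Lmo1, a LIM-domain regulator whose control level was not well above background, so that no fold is given. They are printed 5′ to 3′ on the strand of the gene, with every match to either motif in capitals.
Mmp7: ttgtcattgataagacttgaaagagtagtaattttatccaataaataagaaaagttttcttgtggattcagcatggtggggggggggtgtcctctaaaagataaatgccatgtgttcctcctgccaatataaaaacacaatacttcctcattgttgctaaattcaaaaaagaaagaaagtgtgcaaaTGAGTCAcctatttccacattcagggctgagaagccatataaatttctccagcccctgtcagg
Aoc1: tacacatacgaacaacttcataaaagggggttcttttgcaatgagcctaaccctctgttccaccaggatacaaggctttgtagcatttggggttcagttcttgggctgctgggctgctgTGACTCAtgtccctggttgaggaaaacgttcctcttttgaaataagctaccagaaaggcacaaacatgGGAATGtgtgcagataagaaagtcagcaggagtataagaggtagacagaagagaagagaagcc
Emp1: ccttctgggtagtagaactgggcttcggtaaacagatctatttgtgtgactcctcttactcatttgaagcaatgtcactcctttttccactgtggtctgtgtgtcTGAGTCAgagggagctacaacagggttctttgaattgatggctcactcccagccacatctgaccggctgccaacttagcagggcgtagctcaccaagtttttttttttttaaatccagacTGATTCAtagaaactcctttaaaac
Lmo1: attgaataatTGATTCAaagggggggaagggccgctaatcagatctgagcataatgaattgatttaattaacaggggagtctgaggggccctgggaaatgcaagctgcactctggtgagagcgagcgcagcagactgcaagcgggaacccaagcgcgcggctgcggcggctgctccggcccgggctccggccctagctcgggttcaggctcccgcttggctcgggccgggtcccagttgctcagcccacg
The windows lie at chr9:7691840-7692089 on the plus strand (Mmp7), chr6:48904736-48904985 on the plus strand (Aoc1), chr6:135362681-135362930 on the plus strand (Emp1) and chr7:109175208-109175457 on the minus strand (Lmo1). Each of the 4 genes also had another window, at another start, that held neither motif. Positions are given from the start of the window shown. In the Mmp7 window the AP-1 match begins 63 bases before the start. The Aoc1 window holds an AP-1 match 131 bases and a TEAD match 63 bases before the start, and the Emp1 window holds AP-1 matches 145 and 25 bases before it. The Lmo1 match begins 240 bases before the start.

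At 3 weeks, with another 3 Cre and 3 control mice, 321 genes were called, 1.86% of those tested, 87 up (0.503%) and 234 down (1.35%). Of the 78 genes called at 6 weeks 14 were also called at 3 weeks and 76 had the same sign there. The 14 were 12 genes called higher at both ages, Cdh1, called lower at both, and Kif2c, called lower at 3 weeks. Of the 74 that rose, 72 were higher at 3 weeks. Over the 52 with a measured control level at 6 weeks, the median change was 1.48 at 6 weeks and 0.67 at 3 weeks, and 50 had the smaller change at 3 weeks. Because the genes were chosen at 6 weeks the larger value there is no test. Gpx3, a secreted glutathione peroxidase, had changes of 1.00 at 3 weeks and 0.88 at 6 weeks, and Slpi of 1.61 and 3.31. For Dmbt1, Aoc1 and Gipc2, whose control levels at 6 weeks were not well above background, no sizes are compared.

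The test of the difference itself, the change at 6 weeks minus that at 3 weeks, called 1 gene of 17304 (0.00578%). That gene was Kif2c, a kinesin of the mitotic spindle, with a change of 1.23 ± 0.19 at 6 weeks and -1.02 ± 0.19 at 3 weeks and a difference of 2.25 ± 0.27 (limma adjusted p = 0.033). At this age its probe was never well above background, so no fold is given, and after another background correction its change at 6 weeks was -0.05. Leaving out 1 mouse of this age gave 25 calls without Cre mouse 2, 6 without control mouse 2 and 0 without each of the other 4. Cell cycle genes had a median change of 0.35 at 6 weeks and -0.83 at 3 weeks, where 7 of 19 were called lower, but 0 of the 19 passed the test of the difference.

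**Figure D5:**
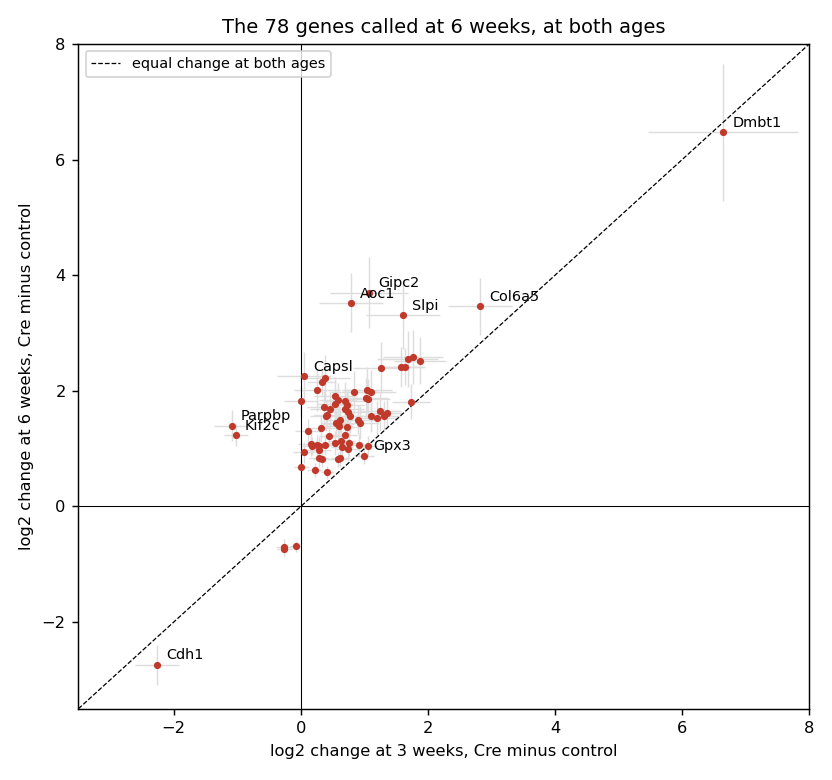
Each point is 1 of the 78 genes called at 6 weeks, with its log2 change at 3 weeks on the horizontal axis and at 6 weeks on the vertical axis, both Cre minus control, and bars of 1 standard error. The dashed line marks equal changes at both ages. For the 22 genes dim on all 6-week control arrays the points are fitted values and not measured sizes. Most points lie above the line, and Kif2c and Parpbp lie to the left of 0.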

How the data were processed

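RNA from 16 livers, 1 mouse per array, was hybridised to 1-colour Agilent arrays. Per the file headers, the deposited processed intensity of a spot is Feature Extraction 10.7.3.1 output, background-subtracted and detrended within the array and not normalized between arrays. The authors' series matrix holds log2 values of unstated normalization, which were an alternative.

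Control spots and outlier spots were dropped, and the array's 75th percentile of log2 signal over the other spots was subtracted. Spots of a probe were averaged. Of 55681 probes, 26582 matched 1 gene by accession in a RefSeq table of GRCm38.p6, used for names only, the array design being older. A probe was kept if every array of 1 or more of the 6 groups of age and genotype read it well above background, and the brightest one stood for its gene. Nothing was imputed.

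One limma 3.58.1 fit (R 4.3.3, lmFit and eBayes, two-sided) held a mean for each of the 6 groups of all 16 arrays, with 10 residual and 2.6 prior degrees of freedom, and Benjamini-Hochberg adjustment over all genes. The script was tested on simulated data. A bound ("at least") takes each value of the dim group, or the lowest signal of any well-detected probe on that array where that is higher. The mean of these is subtracted from the mean of the bright group. Some probes brighter than that lowest signal were still not well above background, so a bound is approximate. It was used where all arrays of the dim group were not well above background.

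The 39 lists held 590 genes, 558 of them tested. The members and lists were chosen with earlier results of these data known. Named were Cdh1, called genes by size of change, and from each list the called members and at most 6 others with the smallest unadjusted p, and all cadherins and catenins. Alternatives were other centring, quantile normalization, normexp, the series matrix, other filters on dim probes, the mean of a gene's probes, slide and litter as blocks, the 6-week arrays alone and leaving out each mouse. Counts of list members without a mouse, the percentile over averaged probes and the addition of unnamed probes were chosen after seeing the data. The array number limits the precision.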

Additional observations from a re-analysis of the deposited data

Results flagged for a closer look

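Kif2c, a spindle kinesin, was the 1 gene whose change differed between ages by the test of that difference: 1.23 at 6 weeks and -1.02 at 3 weeks, a difference of 2.25 ± 0.27 (limma adjusted p = 0.033). The probe used was not well above background on any 6-week array, the gene's other kept probe differed by 0.14 at 6 weeks, and the gene passed the filter through another group.

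Among 20587 probes that matched no gene and stood outside the comparison, 7 were called at 6 weeks when tested together with the named genes, 6 higher and 1 lower in the Cre mice. They are unnamed here.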

How the results depend on the processing

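The 78 genes called at 6 weeks became 51 with slide as a block, 48 after quantile normalization, 9 after normexp background correction, 29 from the authors' series matrix, 50 with probes well above background on all arrays, 47 without a filter on dim probes, 35 with unnamed probes in the table and 0 with litter as a block or with the 6-week arrays alone. It was 66 with median centring, 72 with the mean of a gene's probes and 73 with the percentile over averaged probes. Leaving out 1 mouse gave 2 to 976. Cdh1 stayed lower everywhere. It was -2.74 and not called with litter as a block (adjusted p = 0.062) or with the 6-week arrays alone (0.14), -3.20 and -2.30 within slides 1 and 2, and -2.58 to -2.88 without 1 mouse. The difference between ages called 0 genes instead of 1 with litter as a block, quantile normalization, the series matrix, probes well above background on all arrays, no filter, the mean of a gene's probes and unnamed probes, and 0 to 25 without 1 mouse. Kif2c turned to -0.05 after normexp. No other called gene changed sign. The causes were not tested, also where unnamed probes or the open filter added features over which p is adjusted.

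No paired analysis was possible because the labels number no mice across groups and the design text calls the mice unpaired. Litter was inferred from titles and served as the block instead. With 3 mice a group, a gene that missed the threshold is not shown to be unchanged, and for dim probes only bounds were measurable.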

Other observations

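Male-biased liver genes depend on the pulsed growth hormone of males. At 6 weeks, 12 of 12 members of their list were lower, against 8306 of all 17304 genes. Their median change was -0.43, with 0 called. The shift was largest in 1 mouse: the list's median against the control mean was -0.26, -0.06 and -0.96 in Cre mice 1 to 3. Cyp7b1, a hydroxylase of oxysterols, was 5.80, 5.14 and 6.34 in the control mice and 4.88, 5.48 and 2.94 in the Cre mice (-1.33 ± 0.59, limma adjusted p = 0.39). Elovl3, a fatty acid elongase, was 3.38, 3.02 and 3.22 against 2.23, 3.17 and -0.10 (-1.43 ± 0.74, adjusted p = 0.5). Pericentral hepatocyte genes, which Wnt and beta-catenin keep on, were lower in 14 of 15 members (median -0.28, 0 called) with the same mouse lowest, at -0.25, -0.01 and -0.67. Glul, glutamine synthetase, was 5.84, 5.97 and 6.08 in the control mice and 5.80, 5.93 and 4.94 in the Cre mice (adjusted p = 0.63). Notum, a Wnt inhibitor, was lower in every Cre mouse (-0.42 ± 0.12, adjusted p = 0.14). At 3 weeks the male-biased list had a median of -1.11 and the pericentral list -0.31.

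Some lists varied between mice of both genotypes. Saa2, an acute phase protein, was 4.47, 5.19 and 8.40 in the control mice and 6.30, 5.24 and 8.23 in the Cre mice, so that the 2 mice of the second litter were the highest of either group. Cholesterol synthesis genes were higher in 16 of 16 members (median 0.36, 0 called), against 8998 of all 17304 genes, but control mouse 1 lay among the Cre mice. Hmgcs1, an early enzyme of the pathway, was 5.15, 4.20 and 3.52 in the control mice and 5.68, 4.65 and 4.83 in the Cre mice (0.76 ± 0.40, adjusted p = 0.51), with a median for the list of 0.00 on slide 1 and 0.33 on slide 2. Gsta1, a glutathione transferase, was high in 2 mice alone, at 1.51, 1.42 and 1.20 in the control mice and 4.74, 1.50 and 3.69 in the Cre mice (adjusted p = 0.34). Interferon response genes had a median of -0.04 and lipogenic genes 0.02, with 0 of 14 and 0 of 13 called.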
